A study of Homo sapiens with 2 samples.

Results

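The 5 genes GFI1, GFI1B, DDX31, PRDM6 and SNCAIP lie at the loci best known for enhancer hijacking in Group 3 and Group 4 medulloblastoma (MB). OTX2 binding was examined in the window formed by each gene's GENCODE record on GRCh38 and 200 kb on either side, and every deposited peak that overlapped a window was kept. These are 5 of 19881 protein-coding genes, and their windows held 125 of 137412 deposited peaks. The material was tumorspheres of D283, an established human MB cell line, in the OTX2-expressing state that the paper calls OTX2high. The paper uses that term for its scramble siRNA controls, and the sample titles name no treatment. Chromatin precipitated with an OTX2 antibody (1 library) was compared with Input chromatin of the same cells, prepared without antibody (1 library). Neither condition had a replicate, so no p-value was computed. Intervals around fragments cover counting error only, and intervals around shares take peaks as independent, which neighbouring peaks may not be. The windows were chosen for the genes' roles in tumors, with earlier results of these data known. The structure of D283 chromosomes at these loci was not measured.

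In enhancer hijacking, a structural variant places a silent gene beside an active enhancer that belongs to another gene. GFI1 and GFI1B, related zinc finger repressors that recruit the LSD1 histone demethylase complex, are switched on in this way in a subset of Group 3 and Group 4 MB, and breakpoints of the GFI1B variants fall in and around DDX31, an RNA helicase gene beside BARHL1. In Group 4 MB, tandem duplication of SNCAIP, which encodes the alpha-synuclein partner synphilin-1, brings enhancers of that locus to PRDM6, a PR domain regulator of transcription. OTX2 is a homeobox transcription factor of the early brain that is highly expressed in most Group 3 and Group 4 tumors.

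A peak is an interval in which ChIP fragments piled up above the local Input. Its pileup is the height of that pile at the summit, on the scale of the Input library. After removal of duplicates 61259377 ChIP fragments and 22521186 Input fragments remained, so the ChIP library was 2.72 times deeper. Each ChIP fragment was worth 0.735 units of pileup, which is 2 times the ratio of Input to ChIP fragments. Dividing by this step returned whole ChIP fragments at all peaks, to within 0.0068 of a whole number, and peak heights are given below as these fragments with 95% Poisson intervals. Fold enrichment is the pileup plus 1 over the local Input plus 1, which allows the local Input to be recovered. The lowest local Input at any peak was 3.98 units, and peaks within 0.2% of that value are described as at the floor. Because so many peaks shared this value, it is read as a lower limit, and Input at those peaks may be lower than stated. Across all deposited peaks the median height was 53 fragments (range 15 to 461), the median fold enrichment was 6.10, the median local Input was 5.00, and 26.4% of peaks were at the floor.

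SNCAIP carried far more OTX2 peaks than the other 4 genes. Its window held 57 peaks, or 103 per Mb, and windows of only 5.70% of protein-coding genes were at least as dense. The GFI1 window held 20 peaks (48.3 per Mb), the DDX31 window 21 (44.0 per Mb) and the PRDM6 window 22 (43.6 per Mb). All were below the median of 52.2 per Mb over all protein-coding genes. Medians within the chromosome were 64.7 per Mb for GFI1 (chromosome 1), 49.7 for DDX31 (chromosome 9) and 53.3 for PRDM6 (chromosome 5). On chromosome 1, 68.9% of genes were at least as dense as GFI1. The order of these 3 genes changed with the window size and the peak threshold and is not read further. When peaks below a fold enrichment of 5 were dropped, their densities were 31.4 per Mb at GFI1, 29.3 at DDX31 and 25.7 at PRDM6. The median of 52.2 per Mb is without that threshold, so densities at this threshold, here and for GFI1B, are not compared with it. GFI1B was the poorest locus, with 7 peaks (15.6 per Mb), and 89.7% of protein-coding windows were at least as dense. Its density was 28.6 per Mb with 500 kb on either side and 8.93 per Mb when peaks below a fold enrichment of 5 were dropped, the lowest of the 5 genes in both cases. The DDX31 and GFI1B windows overlap and shared 2 peaks. SNCAIP therefore held 45.6% of the 125 distinct peaks, and the pooled density of 55.1 per Mb rested on that gene.

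**Figure D1:**
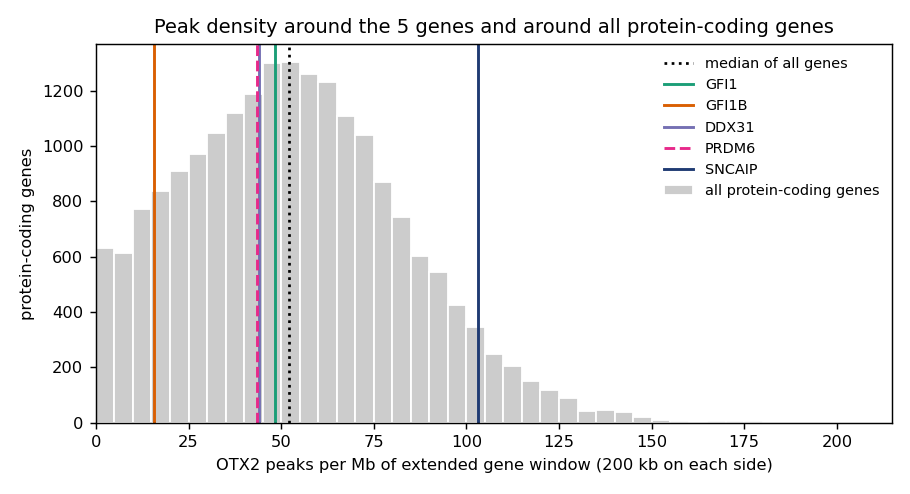
Histogram of OTX2 peaks per Mb (x axis) in the extended windows of all 19881 protein-coding genes (y axis, number of genes), with a vertical line for each of the 5 genes and a dotted line at the median of all genes. SNCAIP, at 103 per Mb, stood in the upper tail, GFI1B, at 15.6 per Mb, in the lower part, and the other 3 genes between 43.6 and 48.3 per Mb.

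Having a peak somewhere in such a wide window does not distinguish these genes, since all 5 had one and so did 99.1% of protein-coding genes. A cluster was defined as 3 or more peaks chained by a fixed limit on the gap between neighbouring edges, and the widest gap joined in these windows was 12.3 kb. Clusters overlapped the windows of 4 of the 5 genes, GFI1B being the exception, against 85.9% of protein-coding genes. Around the transcription start site (TSS), in a stretch from 5 kb before it to 2 kb after it, 4 of the 5 genes had a peak, GFI1 being the exception, against 57.2% of protein-coding genes. Shares this close to the background carry no statement about the group, and the loci are described singly.

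**Figure D2:**
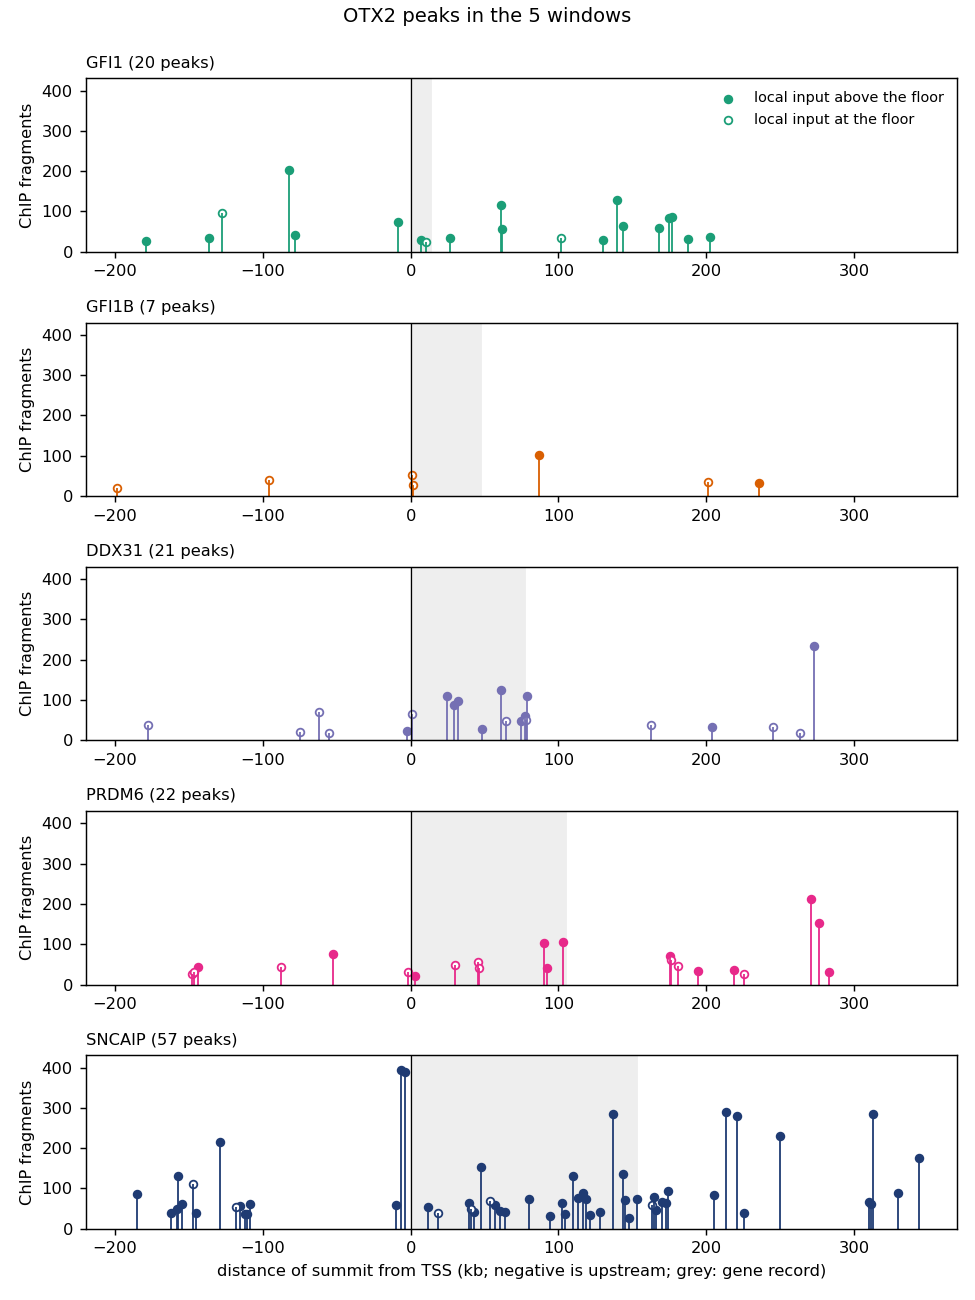
Height of each OTX2 peak in ChIP fragments (y axis) against the distance of its summit from the TSS of the gene record in kb (x axis, negative upstream), with the gene record shaded and open points for local Input at the floor. The tall SNCAIP peaks, up to 395 fragments, lie both upstream of the TSS and in the 3′ part of the gene and beyond it, whereas no peak in the GFI1B window exceeded 103 fragments.

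At SNCAIP (chr5:122311354-122464219, plus strand), 24 peaks lay inside the gene, 16 upstream and 17 downstream. The median height was 64 fragments (range 28 to 395) and the median fold enrichment was 6.96 (range 2.30 to 41.0). Of these peaks 6 (10.5%) had a fold enrichment of at least 20, against 6.72% of all deposited peaks. Another measure, a length of 1 kb or more, held for 10 (17.5%), against 8.16%. The locus held many ordinary peaks and a few very tall ones, and a difference of these shares from the background was not tested.

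The strongest OTX2 binding at SNCAIP sat just upstream of the gene. The peak at chr5:122307028-122308496, with its summit 3693 bp upstream of the TSS, held 389 fragments (351 to 430) at a fold enrichment of 41.0, and 99.8% of all deposited peaks had a lower fold. Its neighbour at chr5:122304099-122305351, 6375 bp upstream, was as tall within counting error at 395 fragments (357 to 436) but had a fold enrichment of 24.3. Local Input was 11.0 at the farther peak and 6.00 at the nearer one, and this value in the denominator accounts for the difference in fold. The first exon itself was not covered, because the next peak lay 12.0 kb downstream of the TSS in intron 1 and held 53 fragments.

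Within the gene, peaks formed 2 clusters. The first held 8 peaks over 24.5 kb of intron 1, and its strongest peak, 47.5 kb from the TSS, reached 154 fragments (131 to 180) at a fold enrichment of 17.3. The second, from intron 3 to beyond the 3′ end, chained 20 peaks over 80.3 kb, and only 140 of the 16878 clusters in the genome (0.83%) held as many peaks. Its size depended on the gap limit, since the largest SNCAIP cluster held 7 peaks with 5 kb and 29 with 20 kb. Its summit of highest fold was in intron 8, with 285 fragments (253 to 320) at a fold enrichment of 27.0. The median cluster in the genome had 4 peaks.

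The flanks of SNCAIP held the other 5 of its 7 clusters. Upstream, the cluster at ZNF474, a zinc finger gene, had 6 peaks, the best of them 157.2 kb from the TSS with 131 fragments and a fold enrichment of 17.1. The next, also of 6 peaks, began at the 3′ end of the ZNF474 record, where its first peak, at 128.7 kb, reached 216 fragments and a fold enrichment of 19.4. The cluster next to the TSS consisted of the 2 tall peaks above and one more of 58 fragments. Downstream, 4 peaks around 213.4 kb from the TSS reached 290 fragments (258 to 325) at a fold enrichment of 23.9. A tight trio at 310.0 to 313.6 kb included the peak at chr5:122623870-122624936, with 284 fragments (252 to 319) at a fold enrichment of 40.4. Although its height matched that of the intron 8 peak within counting error, its local Input was 4.19 against 6.79. In all, 50 of the 57 SNCAIP peaks (87.7%) belonged to clusters, compared with 62.8% of peaks in the genome. A fixed gap limit joins more peaks where they are denser, so this share is not a trait separate from density.

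PRDM6 (chr5:123089241-123194266, plus strand), the gene activated by SNCAIP duplication in tumors, showed less OTX2 binding. Its 22 peaks had a median height of 43.5 fragments (range 22 to 211), with 7 inside the gene. The single peak in the TSS window, 2057 bp upstream, held 32 fragments (21.9 to 45.2) at a fold enrichment of 4.92, and 35.6% of deposited peaks had a lower fold. From there to intron 3 no peak exceeded 55 fragments.

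The higher PRDM6 peaks lay toward the 3′ end and beyond. A peak of 103 fragments (84.1 to 125) in intron 6 had a fold enrichment of 14.7, and a peak of 105 fragments (85.9 to 127) in exon 8 had a fold enrichment of 11.4. These formed 1 of 4 clusters, each of 3 peaks. The 2 tallest peaks of the window were inside the neighbouring CEP120, which encodes a centrosomal protein, with 211 fragments (183 to 241) at a fold enrichment of 20.7 in intron 18, and 152 fragments (129 to 178) at a fold enrichment of 14.5 in intron 17. They stood 270.8 kb and 276.4 kb downstream of the PRDM6 TSS. The remaining clusters were weaker, with best fold enrichments of 9.05 between genes at 176.1 kb and 4.92 in SNX24, a sorting nexin gene, at 146.5 kb upstream.

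Between the end of SNCAIP and the start of PRDM6 lay 625 kb with 30 peaks, or 48.0 per Mb. Of these, 23 fell within 200 kb of one of the genes, 17 beside SNCAIP and 6 beside PRDM6, and the tallest lay on the SNCAIP side. Averaged over this uneven interval, the peak density was near the median protein-coding window. It was less than that of the SNCAIP window and close to that of the PRDM6 window, both of which include some of the same peaks.

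**Figure D3:**
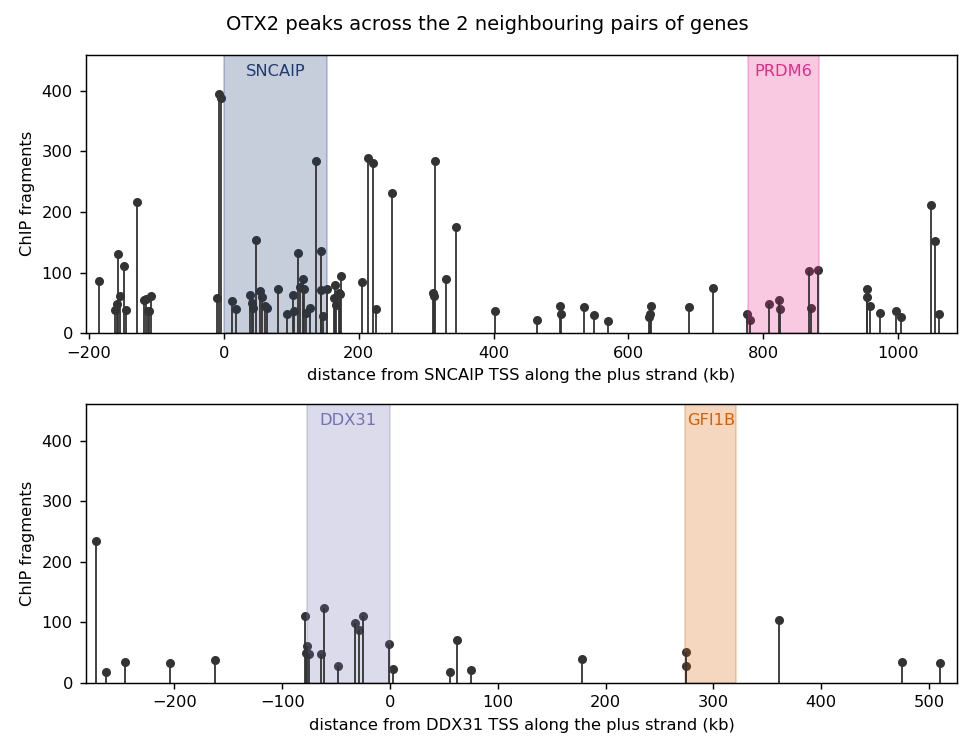
Peak height in ChIP fragments (y axis) along the SNCAIP to PRDM6 region (upper panel) and the DDX31 to GFI1B region (lower panel), plotted by distance in kb from the TSS of SNCAIP or DDX31 along the plus strand (x axis), with the gene records shaded. The tall peaks of the upper panel gather around SNCAIP and in CEP120 at its right end, and in the lower panel 5 peaks lay in the interval between DDX31 and GFI1B.

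DDX31 (chr9:132592997-132670401, minus strand) had 9 peaks inside the gene out of 21 in the window. The median height was 48 fragments (range 17 to 234) and fold enrichments ran from 2.61 to 22.9. The peak of highest fold, at chr9:132395644-132397806, held 234 fragments (205 to 266) and was 2163 bp long. It lay 273.1 kb downstream of the DDX31 TSS, in intron 4 of TTF1, a transcription termination factor gene for ribosomal DNA.

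Inside DDX31 the peaks fell into 2 clusters, neither at the TSS. In introns 13 and 14, 3 peaks over 7.5 kb held 111, 88 and 98 fragments, and the tallest had a fold enrichment of 16.4. At the 3′ end, 7 peaks over 31.6 kb ran from intron 17 to the intergenic stretch toward BARHL1, a homeobox gene of the granule neuron lineage of the cerebellum. The tallest, of 124 fragments (103 to 148) at a fold enrichment of 9.22, was in intron 19, and another of 111 fragments (91.3 to 134) at a fold enrichment of 9.18 lay 8964 bp downstream of the BARHL1 TSS. BARHL1 itself had no peak in its record or in its TSS window.

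The start of DDX31 is shared with GTF3C4, a subunit gene of the RNA polymerase III factor TFIIIC, which is read in the opposite direction. A peak of 1376 bp (chr9:132669022-132670397) held 64 fragments (49.3 to 81.7) at a fold enrichment of 9.64 and cannot be assigned to either gene. It covered the canonical DDX31 start and the start of the GTF3C4 record. It ended just short of the DDX31 record start and of the canonical GTF3C4 start. The second peak of the DDX31 TSS window, 2494 bp upstream, had 22 fragments and a fold enrichment of 2.90. The sequence shown is the part of the shared start that lies outside annotated exons, within DDX31 intron 1. It is chr9:132669785-132669859 on the plus strand, from RefSeq on GRCh38.p14, and the capitals mark bases inside the peak, which here are all of them.
DDX31 and GTF3C4 start: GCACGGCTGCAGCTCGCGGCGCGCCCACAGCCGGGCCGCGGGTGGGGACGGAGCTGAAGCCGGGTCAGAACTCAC

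GFI1B (chr9:132944000-132991687, plus strand) had few and low peaks. The 7 peaks held between 21 and 103 fragments, with a median of 34 and fold enrichments from 2.73 to 12.8, and none belonged to a cluster, although a gap limit of 20 kb gave 1 cluster of 3 peaks. The tallest, of 103 fragments (84.1 to 125) at a fold enrichment of 12.8, covered the start of GTF3C5, another TFIIIC subunit gene, 86.7 kb downstream. The peak next in fold is described below, and a peak in AK8 intron 5, 95.7 kb upstream, had 39 fragments and a fold enrichment of 5.95.

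The GFI1B call at the TSS depended on which start was used. The GENCODE record begins 34.7 kb before the start of the canonical GFI1B transcript, and both TSS peaks lay at the record's beginning, which overlaps TSC1, the tumor suppressor gene for hamartin on the opposite strand. The peak at chr9:132944558-132944881 held 51 fragments (38.0 to 67.1) at a fold enrichment of 7.72, and its summit was 137 bp upstream of the canonical TSC1 start. The other, at chr9:132945244-132945492, held 28 fragments (18.6 to 40.5) at a fold enrichment of 4.33. From the canonical GFI1B start the nearest peak was this same one, 33.3 kb upstream, so the start used by that transcript had none.

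RefSeq places a further GFI1B start at position 132945531, inside the GENCODE record, and the sequences upstream of that start and of the canonical one show what was and was not covered. Capitals mark bases inside a peak, both are on the plus strand from RefSeq on GRCh38.p14, and exonic bases were left out. The stretch before the further RefSeq start is chr9:132945376-132945530, with 117 of 155 bases in the peak of 28 fragments, and the canonical stretch is chr9:132978444-132978506, with 0 of 63.
GFI1B further RefSeq start: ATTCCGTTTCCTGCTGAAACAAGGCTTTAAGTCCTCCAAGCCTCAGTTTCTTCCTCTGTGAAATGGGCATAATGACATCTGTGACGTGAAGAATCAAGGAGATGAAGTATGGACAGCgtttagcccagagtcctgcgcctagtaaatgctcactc
GFI1B canonical start: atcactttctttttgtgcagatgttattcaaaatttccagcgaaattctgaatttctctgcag

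The interval between the DDX31 TSS and the GFI1B record was sparsely bound. It spanned 274 kb with 5 peaks, or 18.3 per Mb, and the strongest was in AK8 intron 11, 61.9 kb upstream of DDX31, with 70 fragments (54.6 to 88.4) at a fold enrichment of 10.5. AK8 encodes an adenylate kinase. Of the 5 peaks, 4 were at the floor of local Input.

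GFI1 (chr1:92473043-92486925, minus strand) differed from GFI1B in density but, like it, had no peak at the canonical start. Its 20 peaks held 23 to 204 fragments, with a median of 49, at fold enrichments between 3.29 and 14.5. Only 2 lay inside the gene, with 30 fragments in intron 5 and 23 in intron 6, and the lowest fold of the window was the first of these. The nearest upstream peak, 8728 bp from the TSS, held 74 fragments (58.1 to 92.9) at a fold enrichment of 7.92. The 250 bases upstream of the start, chr1:92486926-92487175 on the minus strand (RefSeq, GRCh38.p14), held no peak base and so are all in lower case.
GFI1 start: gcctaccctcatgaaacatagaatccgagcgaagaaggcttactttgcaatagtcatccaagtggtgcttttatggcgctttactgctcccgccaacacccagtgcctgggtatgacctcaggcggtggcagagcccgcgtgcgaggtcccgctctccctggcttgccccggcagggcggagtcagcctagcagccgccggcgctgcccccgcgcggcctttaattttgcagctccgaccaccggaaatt

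The stronger GFI1 peaks were between genes or inside other genes. The highest fold enrichment, 14.5, belonged to a peak of 115 fragments (94.9 to 138) between genes, 61.1 kb downstream at chr1:92425444-92426031. Next came a peak of 95 fragments and a fold enrichment of 14.2 in intron 16 of EVI5, a regulator of the cell cycle, 127.5 kb upstream. The third, of 128 fragments (107 to 152) at a fold enrichment of 13.4, lay in intron 11 of RPAP2, an RNA polymerase II phosphatase gene. The tallest peak, with 204 fragments (177 to 234), was in EVI5 intron 18, 82.1 kb upstream, and had a fold enrichment of 12.6 over a local Input of 11.0.

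Both GFI1 clusters were in or at RPAP2, and neither was called with a gap limit of 5 kb. One had 4 peaks over 21.0 kb with a best fold enrichment of 12.4, and it began at the shared start of RPAP2 and GLMN. The other had 3 peaks over 14.1 kb and contained the intron 11 peak. Together they held 7 of the 20 peaks (35.0%).

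Local Input was above the floor more often at SNCAIP and GFI1 than at the remaining loci. At SNCAIP 6 of 57 peaks (10.5%, Wilson 95% interval 4.91 to 21.1%) were at the floor, with a median local Input of 6.00 and a maximum of 14.0. At GFI1 3 of 20 (15.0%) were at the floor, against 13.6% of all chromosome 1 peaks. The share was 45.5% at PRDM6 (10 of 22), 47.6% at DDX31 (10 of 21) and 71.4% at GFI1B (5 of 7, 35.9 to 91.8%). It was 24.6% among chromosome 5 peaks and 26.1% among chromosome 9 peaks. Both of the 2 peaks shared by the DDX31 and GFI1B windows were at the floor and count in both shares. Pooled, the 125 peaks gave 25.6% (18.8 to 33.9%), near the genome's 26.4%, but without SNCAIP the share was 38.2%. The intervals take each peak as independent although many lie close together, so they may be too narrow.

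Over all deposited peaks the median local Input rose with height, from 4.05 under 40 fragments to 6.00 at 80 or more, so the shares were also set out by height. Among peaks under 40 fragments, 11.1% of SNCAIP peaks (1 of 9) and 48.3% of those in the other 4 windows were at the floor, against 40.8% of all deposited peaks. At GFI1, one of those windows, 2 of 9 such peaks (22.2%) were at the floor. From 40 to 79 fragments the shares were 14.3% at SNCAIP (4 of 28), 50.0% in the other windows and 23.9% in all deposited peaks, and none of the 5 GFI1 peaks of that height was at the floor. At 80 fragments or more they were 5.00%, 5.88% and 14.0%. In that class GFI1 had 1 of 6 peaks (16.7%) at the floor, while PRDM6 had 0 of 4 and DDX31 0 of 6. The contrast of GFI1 with those loci was therefore not seen among the tall peaks. The median local Input at SNCAIP exceeded that of all deposited peaks in each class, at 5.15 against 4.05, 5.15 against 5.00 and 7.14 against 6.00.

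**Figure D4:**
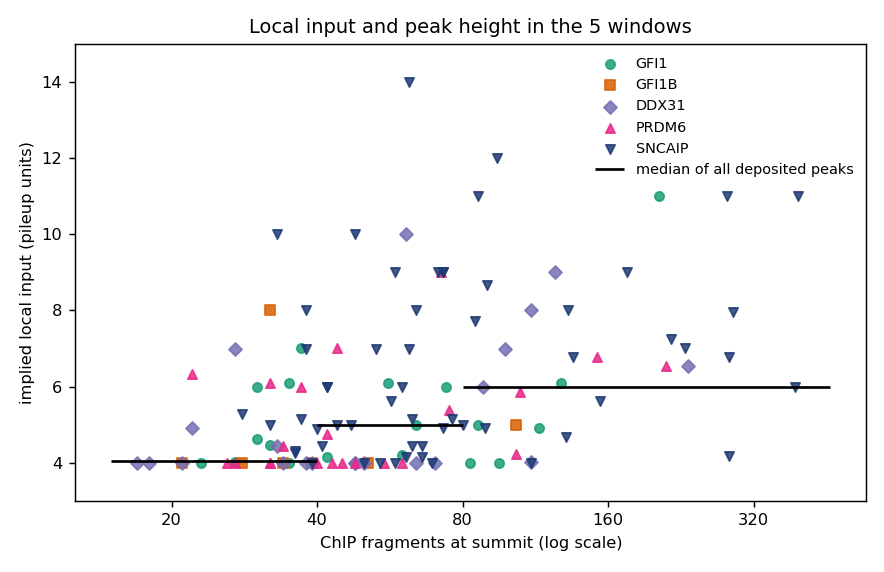
Implied local Input in pileup units (y axis) against ChIP fragments at the summit (x axis, log scale) for each peak of the 5 windows, with black lines at the median of all deposited peaks in each of 3 height classes. Many PRDM6, DDX31 and GFI1B peaks lie along the floor of 3.98, and SNCAIP peaks spread up to 14.0.

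OTX2 recognises homeodomain motifs, and the 250 bases upstream of RefSeq starts were searched, either strand, for the letters TAATCC or TAATCT. They were present in 11.4% of 35116 such stretches, in 11.9% of those with a peak and in 11.2% of those without. Starts of 4 of the 5 genes were matched in RefSeq. Neither the GFI1, SNCAIP and GFI1B starts nor the canonical DDX31 start held either motif in these windows, and a pair of overlapping stretches at internal DDX31 starts, which had no peak, held 1 match.

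Genes that work with or resemble the members were also examined, by counts at their own TSS. Among 12 corepressor partners of GFI1 and GFI1B, 11 had a TSS peak (91.7%), beside 57.2% of protein-coding genes. The best was at ZMYM2, a zinc finger partner of the LSD1 complex, with 83 fragments (66.1 to 103) at a fold enrichment of 12.4, and KDM1A, which encodes LSD1 itself, had 118 fragments (97.7 to 141) at a fold enrichment of 7.98. HDAC2, a histone deacetylase gene, had none. Of 16 PRDM family genes other than PRDM6, 9 had a TSS peak (56.3%), the best at PRDM8 with 115 fragments (94.9 to 138) at a fold enrichment of 17.2. Both lists were chosen with earlier results of these data known. These counts are descriptions of 1 library, and a difference from the background was not tested.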

How the data were processed

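ChIP and Input DNA from D283 tumorspheres were sequenced by the authors, who used Bowtie2 2.2.4 for mapping to GRCh38, called peaks with MACS2 2.1.0.20140616 (paired fragments, duplicates removed, q of 0.05) and, per their methods, masked blacklisted regions. The deposited peak table gives pileup signal at the summit, fold enrichment over local Input as a ratio, and −log10 p and q values as the authors' caller wrote them. Peaks were called once, on 1 ChIP library against 1 Input library.

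Fragments were recovered by dividing pileup by 2 times the Input to ChIP depth ratio, and local Input as (pileup + 1) / fold − 1. The 0.2% tolerance at the floor was set after values were seen. Gene records and introns (canonical transcript) came from GRCh38 positions stored in GENCODE release 44, and promoter sequences from RefSeq. Genome sequence within other peaks was not analysed. Overlap meant at least 1 bp. Intervals are exact Poisson (fragments) or Wilson (shares). The software was Python 3.11.15, pandas 2.3.3, numpy 2.4.6 and scipy 1.17.1, tested on simulated data.

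Members and gene lists were chosen with earlier results of these data known. Named peaks were the 3 of highest fold in each window and the strongest of each cluster. Tallest peaks, peaks nearest a start and other single peaks were chosen after values were seen. Alternatives varied the peak threshold, window, overlap, gene record, cluster rule and TSS.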

Additional observations from a re-analysis of the deposited data

How the results depend on the processing

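There was 1 library per condition, so no replicate could be left out. No paired analysis was possible because no result came from a test. Of 35 alternatives to the pooled results, 30 stayed within 1.5 times a count or within the spread of a value. The 5 that moved were the following. The number of peaks in the 5 windows, 125, was 82 with 100 kb on each side and 248 with 500 kb. The median pileup rose from 42.65 to 52.57 when only peaks with a fold enrichment of at least 5 were kept, which removes low peaks by construction. Clusters fell from 16 to 5 when at least 5 peaks were asked for. With a gap limit of 5 kb or 20 kb there were 13 and 16, but GFI1 had 0 with 5 kb and GFI1B had 1 with 20 kb. Genes with a TSS peak went from 4 to 2 (GFI1B and DDX31) within 1 kb on either side, where 46.9% of protein-coding genes had one. That count was 5 with any transcript start (66.6% of genes), and 3 with the canonical start (DDX31, PRDM6 and SNCAIP; 58.5% of genes), an alternative chosen after the data were seen. SNCAIP had the highest and GFI1B the lowest density of the 5 genes under all 7 settings. Of 60 alternatives for single genes, 45 stayed within those limits and 15 moved, all 15 with another window size or the fold threshold. With a single ChIP library, only counting error could be given for peak heights, and a peak of 30 fragments has a 95% interval of 20.2 to 42.8.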
